A study of Mus musculus with 13 samples.

Results

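Vsig4 and 9 other genes known as markers of tissue-resident macrophages were followed through the hearts of 13 mice measured on single-colour Illumina expression arrays. The 10 genes are Vsig4, Clec10a, Cd163, Mrc1, Folr2, Cbr2, F13a1, Timd4, Csf1r and Fcgr1, and every probe carrying one of these symbols or an older alias was taken, 13 probes of 45281 on the array. A probe was kept where its detection p-value, which sets its signal against the array's background, was under 0.05 on at least 3 arrays. That left 11 of the 13 probes, with at least 1 for each of the 10 genes, among 10410 genes tested. Vsig4 and Clec10a were picked because of their values in sAcvR2B-Fc pre-treated hearts, so those values are described here without a test.

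All mice were male C57BL/6 animals of 8 to 10 weeks, injected intraperitoneally, and total heart RNA was labelled. One group of 3 mice received sAcvR2B-Fc, a soluble activin receptor 2B fused to an antibody Fc part, and 48 hours later doxorubicin, and is called pre-treated here. A second group of 5 received doxorubicin alone, and the third, of 5, received PBS. Hearts were collected 20 hours after doxorubicin or PBS. No group given sAcvR2B-Fc without doxorubicin was analysed here, so the differences between pre-treated and doxorubicin hearts concern the Fc protein on top of the drug. The sources used here do not say whether any mice shared a cage or a litter.

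Resident macrophages live among the muscle cells of the heart, take up dead cells and debris, and are kept alive by signals through the receptor that Csf1r encodes. Many of them carry scavenger receptors, lectins and other receptors on their surface, among them the products of Cd163, Mrc1, Folr2 and Timd4. Vsig4 encodes a receptor of the immunoglobulin superfamily that binds fragments of complement component C3 and helps macrophages clear particles coated with them. It is best known from Kupffer cells of the liver and from resident macrophages of the peritoneum. Activins and related ligands, which sAcvR2B-Fc binds, belong to the TGF-beta superfamily.

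The deposited tables do not name all arrays alike, which bears on every comparison. Setting the columns of the series matrix against those of the non-normalized table by rank correlation matched each with 1 array, at 0.999994 or above. Of the 13 arrays, 5 carried the same sample name in both tables and 8 carried different names, 6 of them in another group. Both tables placed 7 arrays in the same group, namely 1 pre-treated, 3 doxorubicin and 3 PBS arrays. Values below follow the names of the non-normalized table. Under these names Cdkn1a, which encodes the cell cycle inhibitor p21 and is induced by DNA damage, separated both groups named as given doxorubicin from PBS. Cdkn1a was named after its values were seen, so it is no test of the array names. Its log2 signal was 10.97, 11.13 and 9.92 in pre-treated hearts and 9.66 to 10.89 in doxorubicin hearts, against 7.16 to 8.59 in PBS hearts. Under the series matrix names the Cdkn1a ranges overlapped, with 8.28 to 10.97 in pre-treated, 8.28 to 10.89 in doxorubicin and 7.16 to 11.13 in PBS hearts.

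Across groups the arrays were alike in brightness, with median raw signals of 110.3 to 125.3 in pre-treated, 101.5 to 136.3 in doxorubicin and 108.2 to 132 in PBS hearts. Detected probes numbered 16396 to 17939, 15989 to 17514 and 16022 to 16674 in the same order. All 6 cardiomyocyte genes tested (Myh6, Tnni3, Actc1, Ryr2, Pln and Atp2a2) were detected on all 13 arrays. These are whole-heart samples, in which more macrophages and more RNA of a gene per macrophage cannot be told apart. The number of arrays limits the precision, and p-values measure only the spread between these samples.

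The promoters of 3 of the genes are shown because they stand for 3 patterns described below. Vsig4 was high in pre-treated hearts, Mrc1 overlapped between all groups, and Fcgr1 stood above PBS in both doxorubicin-treated groups. Neither Mrc1 nor Fcgr1 was called in any comparison. Each stretch runs from 250 bases before to 50 bases after the annotated start in RefSeq's GRCm38.p6 assembly, 5′ to 3′ on the gene's strand. Capitals mark GAGGAA or its reverse complement TTCCTC, the core bound by the myeloid factor PU.1.
Vsig4, minus strand of chrX:96293389-96293688: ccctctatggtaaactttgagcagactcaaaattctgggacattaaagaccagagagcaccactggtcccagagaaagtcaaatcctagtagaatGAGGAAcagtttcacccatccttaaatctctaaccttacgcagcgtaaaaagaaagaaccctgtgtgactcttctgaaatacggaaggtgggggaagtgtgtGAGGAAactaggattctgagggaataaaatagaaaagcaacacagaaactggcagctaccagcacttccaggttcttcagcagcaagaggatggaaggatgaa
Mrc1, plus strand of chr2:14229164-14229463: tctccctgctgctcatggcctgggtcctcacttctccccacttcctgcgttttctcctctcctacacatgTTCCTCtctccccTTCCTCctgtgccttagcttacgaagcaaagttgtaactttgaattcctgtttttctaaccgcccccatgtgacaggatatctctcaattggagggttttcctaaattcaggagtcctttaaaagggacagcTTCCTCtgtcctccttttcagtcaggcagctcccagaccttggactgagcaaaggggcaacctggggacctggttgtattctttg
Fcgr1, minus strand of chr3:96293920-96294219: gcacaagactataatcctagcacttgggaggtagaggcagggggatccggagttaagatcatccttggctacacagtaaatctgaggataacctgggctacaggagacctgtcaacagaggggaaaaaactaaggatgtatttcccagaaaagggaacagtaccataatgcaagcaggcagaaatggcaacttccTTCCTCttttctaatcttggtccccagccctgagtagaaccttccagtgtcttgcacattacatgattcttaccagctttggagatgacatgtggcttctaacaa

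On both strands, GAGGAA occurred 2 times in the Vsig4 window, 3 times in the Mrc1 window and 1 time in the Fcgr1 window. It was present in 6 of the 10 windows listed for the 8 genes of the set that had a promoter entry (Folr2 and F13a1 had 2 windows each), against 28.276% of all 32851 promoter windows of the same length. CAGAC, a short element recognised by SMAD proteins, which carry activin signals, occurred 1 time each in the Vsig4 and Mrc1 windows and not in the Fcgr1 window. It was present in 5 of the 10 windows, against 49.594% of all windows. A match of one motif can share an end base with a match of the other. Clec10a and Csf1r had no entry.

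Vsig4 was high on every pre-treated array and low on every other array. Its log2 signal was 8.68, 9.47 and 8.46 in pre-treated hearts, against 6.26, 6.39, 5.93, 6.31 and 5.35 in doxorubicin hearts and 6.01, 5.33, 5.19, 5.28 and 5.44 in PBS hearts. The lowest pre-treated array lay above the highest of the other 10 arrays, while doxorubicin and PBS arrays overlapped. Over all genes, 4.18% separated upwards in pre-treated against doxorubicin hearts and 8.06% in pre-treated against PBS hearts. The raw signals showed the same order of groups before any normalization, with 581.5, 752.5 and 413.9 in pre-treated hearts, 111.8 to 220.7 in doxorubicin hearts and 122.7 to 188.5 in PBS hearts. Its single probe, ILMN_1241350, was detected on all 13 arrays, but on PBS arrays with detection p-values up to 0.0449, close to the threshold.

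**Figure D1:**
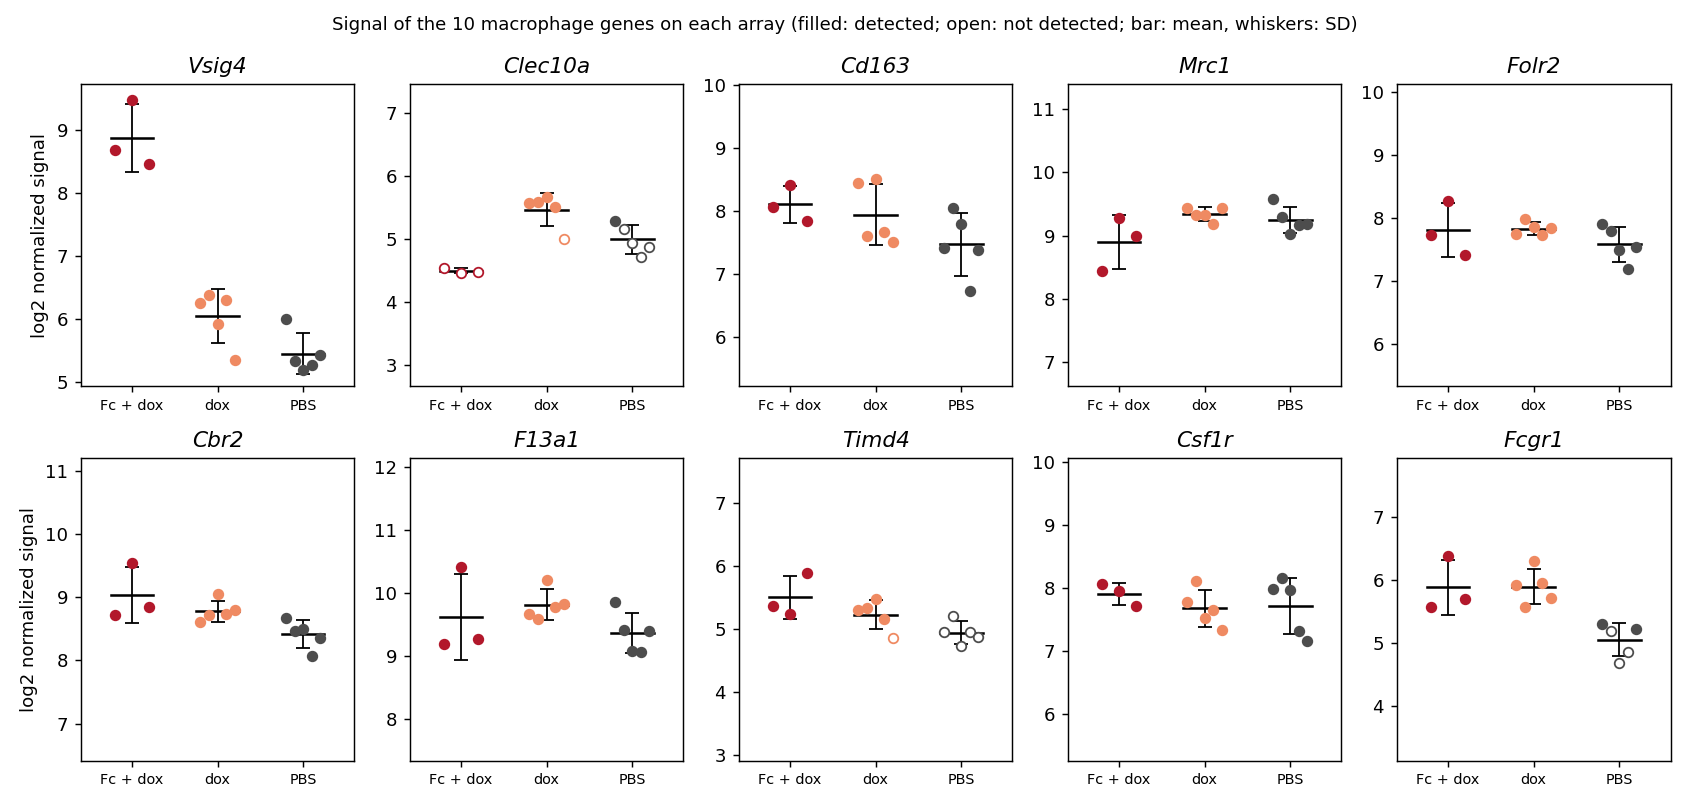
Log2 normalized signal of each of the 10 genes on each array, in pre-treated (Fc + dox, n = 3), doxorubicin (dox, n = 5) and PBS (n = 5) hearts; filled points were detected, open points were not, and bars and whiskers give mean and SD. Every panel spans the same number of log2 units around its own centre, so heights of points can be compared within but not between panels; the 3 pre-treated arrays of Vsig4 stand apart at 8.46 to 9.47, and the 3 of Clec10a, none of them detected, lie at 4.47 to 4.55.

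Vsig4 averaged 8.87 ± 0.53 in pre-treated hearts (SD, n = 3), 6.05 ± 0.43 in doxorubicin hearts and 5.45 ± 0.32 in PBS hearts (SD, n = 5 each). The difference was 2.83 ± 0.27 (log2, SE) between pre-treated and doxorubicin hearts, or 7.09-fold, and 3.42 ± 0.27 between pre-treated and PBS hearts, or 10.7-fold. Both comparisons use the same 3 pre-treated arrays. Vsig4 ranked 1 of 10410 genes from the top in each, which is the ground on which it was picked. Between doxorubicin and PBS hearts the difference was 0.60 ± 0.23, which did not pass limma's test (adjusted p = 0.305).

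The Vsig4 values were also grouped by the sample names in the series matrix table. Such regrouping moves whole arrays and cannot show which names are right. Under the names of that table the 3 high arrays fell 1 into each group, and the ranges became 5.19 to 8.68 in pre-treated, 5.28 to 8.46 in doxorubicin and 5.33 to 9.47 in PBS hearts. The differences were then -0.06 ± 0.99 for pre-treated minus doxorubicin hearts and -0.10 ± 0.99 for pre-treated minus PBS hearts (log2, SE). With the fit limited to the 7 arrays of undisputed group, only 1 pre-treated array is left, and Vsig4 stood 2.49 ± 0.30 above doxorubicin and 3.09 ± 0.30 above PBS hearts, with the spread of that lone array taken from the other groups. Ccl21a, a chemokine gene of lymphatic endothelium, and the potassium channel subunit gene Kcne1 set the same 3 arrays apart in the other direction. Both genes were named after their values were seen, so they are no test of the array names. Of the 6 lymphatic genes tested, Ccl21a alone was called, in both comparisons of pre-treated hearts. Over all genes, 0.0865% were called against doxorubicin and 1.23% against PBS hearts. Ccl21a was at 7.28, 6.05 and 7.34 in pre-treated hearts, against 9.53 to 9.98 in doxorubicin and 9.53 to 10.10 in PBS hearts. Kcne1 was at 5.16, 5.06 and 5.47 in pre-treated hearts, against 7.03 to 8.10 in doxorubicin and 7.65 to 8.08 in PBS hearts.

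**Figure D2:**
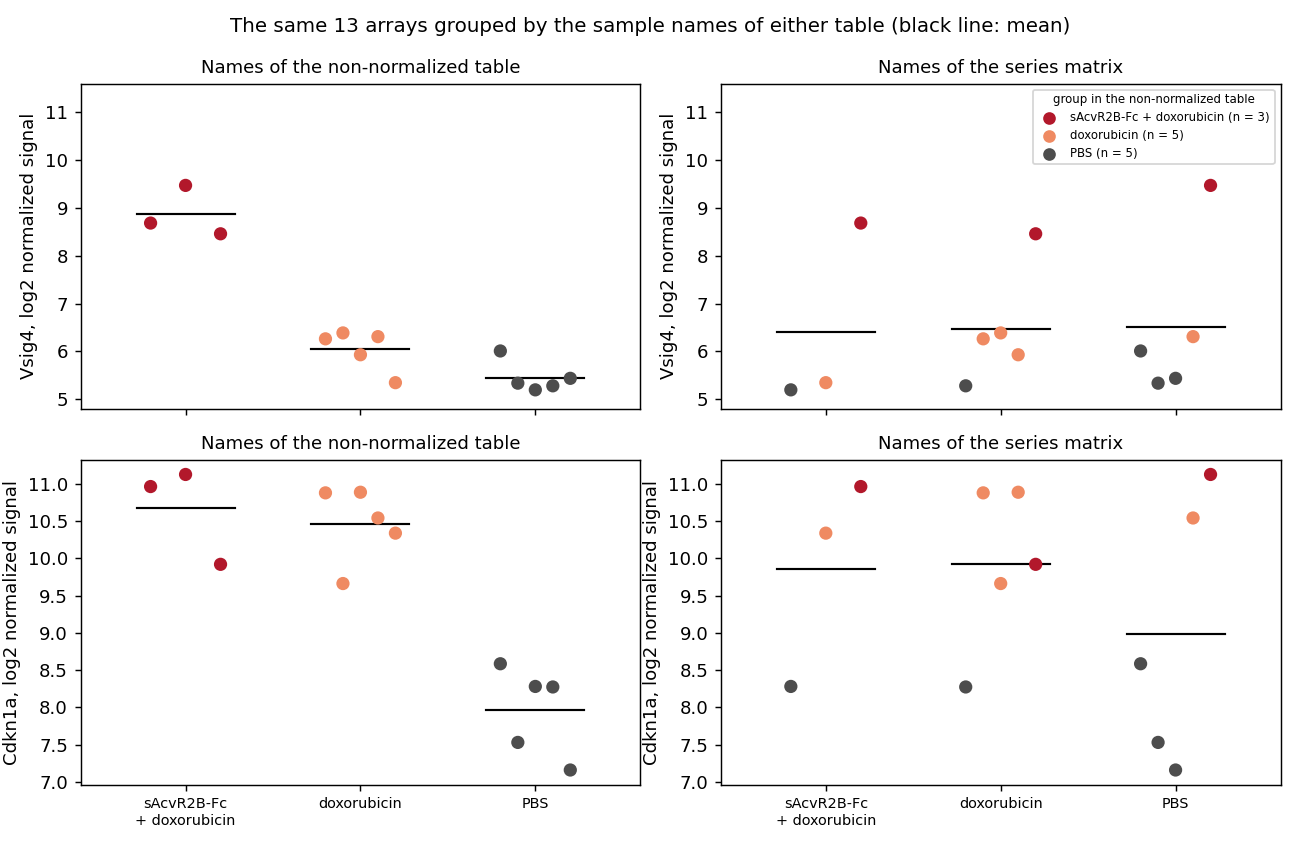
Log2 normalized signal of Vsig4 (top) and Cdkn1a (bottom) on the same 13 arrays, grouped by the names of the non-normalized table (left) and of the series matrix (right); colours give the group in the non-normalized table and black lines the means. On the left the 3 pre-treated arrays of Vsig4 lie at 8.46 to 9.47 above all others; on the right 1 of them falls into each group, and Cdkn1a arrays at 8.28 or below appear in all 3 groups.

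Clec10a, which encodes a C-type lectin of macrophages and dendritic cells that binds galactose-containing sugars, was low in pre-treated hearts. Its log2 signal was 4.55, 4.47 and 4.48 in pre-treated hearts, against 5.58, 5.58, 5.66, 5.52 and 5.00 in doxorubicin hearts and 5.29, 5.16, 4.94, 4.72 and 4.87 in PBS hearts. After normalization the 3 pre-treated arrays lay below all 10 others. Over all genes, 2.80% separated downwards from doxorubicin and 5.81% from PBS hearts. Doxorubicin and PBS arrays overlapped through doxorubicin replicate 5. Raw Clec10a signals overlapped between all groups, at 99.9 to 116.5 in pre-treated, 106.4 to 171.5 in doxorubicin and 107.6 to 154.8 in PBS hearts. Its only probe, ILMN_1249486, was detected on 0 of 3 pre-treated, 4 of 5 doxorubicin and 1 of 5 PBS arrays, so the pre-treated level is only a bound.

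Clec10a averaged 4.50 ± 0.04 in pre-treated hearts (SD, n = 3), 5.47 ± 0.27 in doxorubicin hearts and 5.00 ± 0.23 in PBS hearts (SD, n = 5 each). Measured signals differed by -0.97 ± 0.16 between pre-treated and doxorubicin hearts (log2, SE). Set against the lowest detected signal of each pre-treated array, Clec10a was at least 1.28-fold lower in pre-treated than in doxorubicin hearts. Without background correction the measured difference shrank to -0.33, smaller than that bound, which thus holds only for background-corrected signals. Between pre-treated and PBS hearts the measured difference was -0.50 ± 0.16, but the PBS mean lay under that bound, and no fold is given. In doxorubicin against PBS hearts the difference was 0.47 ± 0.14 (adjusted p = 0.175), not past the threshold. Under the series matrix names pre-treated minus doxorubicin hearts came to -0.37 ± 0.29, and on the 7 shared arrays to -1.06 ± 0.21.

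Mgl2, the neighbour and close relative of Clec10a, has 2 probes. Whether their signal is shared with Clec10a was not tested. The first, ILMN_2707319, was at 5.69, 6.96 and 6.01 in pre-treated hearts, against 6.99 to 7.50 in doxorubicin and 6.60 to 7.23 in PBS hearts. The second, ILMN_2707099, was at 6.08, 6.55 and 6.30 in pre-treated hearts, against 6.69 to 7.38 in doxorubicin and 6.02 to 6.66 in PBS hearts. Both Mgl2 probes thus lay lower on the 3 pre-treated arrays than on any doxorubicin array, and both overlapped PBS. The differences between pre-treated and doxorubicin hearts were -1.001 ± 0.24 and -0.63 ± 0.18 (log2, SE), and neither passed limma's test over all probes (adjusted p = 0.236 and 0.336).

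None of the other 8 genes passed the test when pre-treated and doxorubicin hearts were compared. Limma called 0 of the 8, with 0.0865% of all genes called in this comparison. Their differences ran from -0.44 for Mrc1 to 0.27 for Timd4, 4 above and 4 below 0, with a median of 0.08 against 0.02 over all 10410 genes. Only Mrc1 had an unadjusted p under 0.05 (0.0210), as had 11.3% of all genes. In 0 of the 8 did pre-treated and doxorubicin arrays separate, while 6.98% of all genes separated. A p that misses the threshold does not show equal levels: the 95% intervals of the 8 differences reached down to -0.80 for Mrc1 and up to 0.80 for Cd163.

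**Figure D3:**
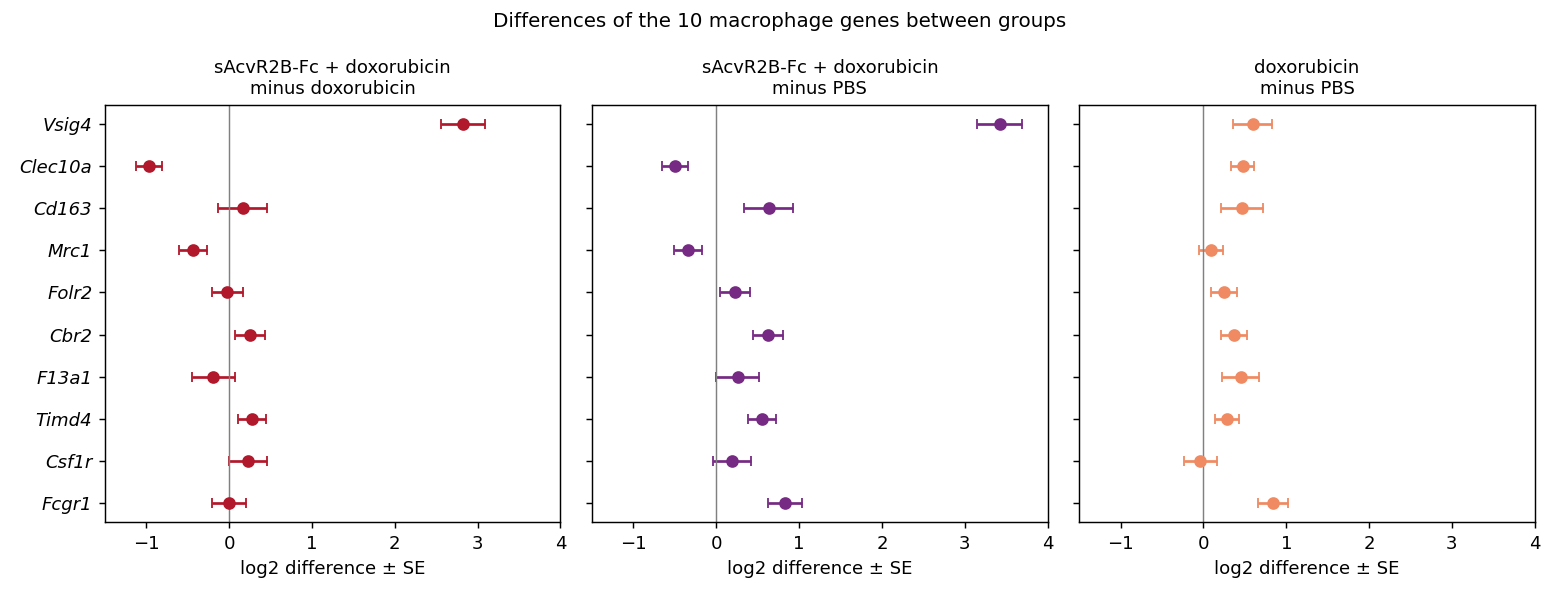
Log2 difference with its SE for each of the 10 genes, pre-treated minus doxorubicin (left), pre-treated minus PBS (middle) and doxorubicin minus PBS (right). Vsig4 lies at 2.83 and 3.42 in the first 2 panels, the 8 genes other than Vsig4 and Clec10a lie between -0.44 and 0.83 in these panels, and in the right panel all 10 lie between -0.04 and 0.84; Clec10a lies at -0.97, -0.50 and 0.47.

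Among the endocytic receptors, Cd163 encodes the scavenger receptor for haemoglobin bound to haptoglobin. Its log2 signal was 8.06, 8.41 and 7.84 in pre-treated hearts, against 8.43, 7.60, 8.51, 7.66 and 7.50 in doxorubicin hearts and 7.41, 8.04, 7.80, 6.73 and 7.38 in PBS hearts. All 3 groups overlapped. Pre-treated hearts differed from doxorubicin hearts by 0.16 ± 0.30 (adjusted p = 0.858, limma) and from PBS hearts by 0.63 ± 0.30 (adjusted p = 0.276), and doxorubicin hearts differed from PBS hearts by 0.47 ± 0.26 (adjusted p = 0.482). A second Cd163 probe was detected on 0 of 13 arrays and was not used.

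Mrc1 encodes the mannose receptor, which takes up glycoproteins. It was at 8.44, 9.28 and 9.00 in pre-treated hearts, against 9.43, 9.33, 9.32, 9.18 and 9.44 in doxorubicin hearts and 9.58, 9.30, 9.02, 9.17 and 9.18 in PBS hearts. The lowest values lay in pre-treated hearts, but pre-treated replicate 2 lay among the doxorubicin and PBS arrays. The difference was -0.44 ± 0.17 against doxorubicin hearts (adjusted p = 0.390, limma) and -0.34 ± 0.17 against PBS hearts (adjusted p = 0.294). On the 7 shared arrays, where the lowest Mrc1 array, pre-treated replicate 1, is the lone pre-treated one, the first of these was -0.93 ± 0.20. Doxorubicin minus PBS hearts gave 0.09 ± 0.15 (adjusted p = 0.851).

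Folr2 encodes folate receptor beta, a surface marker of resident macrophages. It was at 7.74, 8.27 and 7.42 in pre-treated hearts, against 7.73 to 7.99 in doxorubicin hearts and 7.19 to 7.90 in PBS hearts, with overlap throughout. Pre-treated hearts differed from doxorubicin hearts by -0.02 ± 0.18 (adjusted p = 0.972, limma) and from PBS hearts by 0.23 ± 0.18 (adjusted p = 0.548), and doxorubicin hearts differed from PBS hearts by 0.25 ± 0.16 (adjusted p = 0.571). A second Folr2 probe gave -0.01 ± 0.19 and 0.17 ± 0.19 for the same comparisons.

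Timd4 encodes a receptor for phosphatidylserine on dying cells and marks long-lived resident macrophages. It was at 5.36, 5.24 and 5.90 in pre-treated hearts, against 5.30, 5.34, 5.48, 5.16 and 4.86 in doxorubicin hearts and 4.95, 5.21, 4.73, 4.95 and 4.88 in PBS hearts. It was detected on 3 of 3 pre-treated, 4 of 5 doxorubicin and 0 of 5 PBS arrays, and pre-treated arrays lay above all PBS arrays. The gap between the lowest pre-treated and the highest PBS array, 5.24 against 5.21, was small. Set against the lowest detected signals, Timd4 was at least 1.24-fold higher in pre-treated than in PBS hearts and at least 1.03-fold higher in doxorubicin than in PBS hearts. The first bound did not hold under every alternative setting, where the difference fell as low as 0.16 on the log2 scale. For the second, the 95% interval of the difference ran from -0.03 to 0.60. Neither measured difference, 0.56 ± 0.17 and 0.28 ± 0.15 (log2, SE), passed limma's test (adjusted p = 0.104 and 0.455), nor did the 0.27 ± 0.17 between pre-treated and doxorubicin hearts (adjusted p = 0.544).

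Of the receptors for growth factors and antibodies, Csf1r, which binds the macrophage growth factors CSF1 and IL34, did not differ between groups beyond the spread of the arrays. It was at 8.05, 7.94 and 7.71 in pre-treated hearts, against 7.33 to 8.11 in doxorubicin hearts and 7.16 to 8.15 in PBS hearts. Pre-treated hearts differed by 0.22 ± 0.23 from doxorubicin hearts (adjusted p = 0.722, limma) and by 0.19 ± 0.23 from PBS hearts (adjusted p = 0.711), and doxorubicin hearts by -0.04 ± 0.20 from PBS hearts (adjusted p = 0.968). A second Csf1r probe was detected on 1 array only.

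Fcgr1, the high-affinity receptor for IgG and a gene known to be induced by interferon, stood above PBS in both groups given doxorubicin. It was at 5.57, 6.38 and 5.70 in pre-treated hearts and at 5.92, 5.57, 6.30, 5.95 and 5.71 in doxorubicin hearts, against 5.29, 5.19, 4.68, 4.86 and 5.23 in PBS hearts. Pre-treated and doxorubicin arrays lay in the same range, and both groups lay above every PBS array. The probe was detected on 3 of 3 pre-treated and 5 of 5 doxorubicin arrays, but on only 2 of 5 PBS arrays. The difference was 0.83 ± 0.21 between pre-treated and PBS hearts (adjusted p = 0.0636, limma) and 0.84 ± 0.18 between doxorubicin and PBS hearts (adjusted p = 0.0838), 1.78-fold and 1.79-fold, and neither passed the threshold. These comparisons share the PBS arrays. Pre-treated minus doxorubicin hearts gave -0.00 ± 0.21 (adjusted p = 0.994), with a 95% interval from -0.45 to 0.44. Without doxorubicin replicate 2 the adjusted p of Fcgr1 was 0.0483 for pre-treated against PBS hearts and 0.0217 for doxorubicin against PBS hearts, and without pre-treated replicate 2 it was 0.0386 for doxorubicin against PBS hearts, while the largest adjusted p with any 1 array left out was 0.269 for pre-treated and 0.236 for doxorubicin against PBS hearts.

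Cbr2 and F13a1 encode enzymes. Cbr2, a carbonyl reductase abundant in resident macrophages, was at 8.71, 9.55 and 8.85 in pre-treated hearts, against 8.61, 8.71, 9.05, 8.73 and 8.80 in doxorubicin hearts and 8.67, 8.47, 8.49, 8.07 and 8.36 in PBS hearts. Pre-treated arrays lay above all PBS arrays, by a narrow margin, and overlapped doxorubicin arrays. The difference was 0.62 ± 0.18 against PBS hearts (adjusted p = 0.0979, limma) and 0.26 ± 0.18 against doxorubicin hearts (adjusted p = 0.598). Doxorubicin minus PBS hearts gave 0.37 ± 0.16 (adjusted p = 0.359).

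F13a1 encodes the A subunit of coagulation factor XIII, which cross-links fibrin. It was at 9.18, 10.41 and 9.27 in pre-treated hearts, against 9.58 to 10.21 in doxorubicin hearts and 9.06 to 9.86 in PBS hearts. The pre-treated group held both the highest F13a1 array, replicate 2, and values within the PBS range. Pre-treated hearts differed by -0.19 ± 0.26 from doxorubicin hearts (adjusted p = 0.797, limma) and by 0.26 ± 0.26 from PBS hearts (adjusted p = 0.636), and doxorubicin hearts by 0.45 ± 0.22 from PBS hearts (adjusted p = 0.437).

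Against PBS, most of the 8 differences lay above 0 in both groups given doxorubicin, and none passed the test. In pre-treated against PBS hearts 7 of the 8 lay above 0, the exception being Mrc1, with a median difference of 0.41 against 0.00 over all genes. Limma called 0 of the 8, with 1.23% of all genes called. Fcgr1, Cbr2 and Timd4 separated from PBS upwards, 3 of 8 where 8.06% of all genes did so. Timd4 and Fcgr1, detected on 0 of 5 and 2 of 5 PBS arrays, passed the detection filter only through the groups given doxorubicin. The filter thus favoured their separation from PBS, which is a description and no support. In doxorubicin against PBS hearts 7 of the 8 lay above 0, the exception being Csf1r, with a median of 0.33. Limma called 0 of the 8, with 0.240% of all genes called, and Fcgr1 alone separated upwards, where 1.47% of all genes did. The number of genes with an unadjusted p under 0.05 was 1181 (11.3%) in pre-treated against doxorubicin, 1900 (18.3%) in pre-treated against PBS and 1275 (12.2%) in doxorubicin against PBS hearts, out of 10410. The numbers of called genes moved with single arrays, at the extremes as follows. Without PBS replicate 3 the 128 genes called in pre-treated against PBS hearts became 25, and without doxorubicin replicate 2 they became 294. In doxorubicin against PBS hearts the 25 called became 3 without doxorubicin replicate 1 and 332 without doxorubicin replicate 2. Under the series matrix names 0 of the 8, and 0 of all genes, were called in each of the 3 comparisons.

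Within groups, several of the 8 genes varied together from array to array. After subtraction of group means, the Pearson correlation over the 13 arrays was 0.91 between Cbr2 and F13a1, 0.90 between F13a1 and Fcgr1 and 0.80 between Folr2 and Cbr2, with -0.26 between Folr2 and Timd4 as the lowest among the 8. These are descriptions over arrays that share their normalization. Pre-treated replicate 2 lay above its group mean in 7 of the 8 genes, against 1 for replicate 1 and 2 for replicate 3, and it also had the highest Vsig4 signal. PBS replicate 2 lay above its group mean in 8 of the 8 and PBS replicate 1 in 7, against 1 for PBS replicate 4.

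The other genes of resident macrophages were taken from a list of 23, of which 17 were tested. In pre-treated against doxorubicin hearts 0 of the 17 were called, with a median difference of 0.11. The 3 with the smallest adjusted p were the leukotriene synthase gene Ltc4s (-0.90 ± 0.24, adjusted p = 0.232, limma), Ms4a7 (-0.58 ± 0.21, adjusted p = 0.381) and the scavenger receptor gene Stab1 (0.27 ± 0.10, adjusted p = 0.385). Ltc4s lay lower on all pre-treated than on all doxorubicin arrays, while Stab1 and the phagocytic receptor gene Mertk (0.33 ± 0.13, adjusted p = 0.394) lay higher on all of them, and 13 of the 17 differences were above 0. Over all genes 2.80% separated downwards and 4.18% upwards. In pre-treated against PBS hearts 0 of the 17 were called and the median was 0.18. The complement gene C1qb (0.80 ± 0.19, adjusted p = 0.0553), the TAM receptor ligand gene Gas6 (0.79 ± 0.20, adjusted p = 0.0636) and the hyaluronan receptor gene Lyve1 (1.10 ± 0.31, adjusted p = 0.0905) had the smallest adjusted p. Of the 17, 5 separated upwards, where 8.06% of all genes did so, and 8 of the 17 differences lay below 0. In doxorubicin against PBS hearts 0 were called and the median was 0.09, with Lyve1 at 1.04 ± 0.27 (adjusted p = 0.143), Gas6 at 0.63 ± 0.17 (adjusted p = 0.152) and Ltc4s at 0.63 ± 0.21 (adjusted p = 0.222). Siglec1 alone separated upwards there (0.94 ± 0.31, adjusted p = 0.226), where 1.47% of all genes did. Like Fcgr1, it also separated in pre-treated against PBS hearts (1.05 ± 0.36, adjusted p = 0.143). It was detected on 3 pre-treated, 4 doxorubicin and 0 PBS arrays, so it passed the detection filter only through the groups given doxorubicin.

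**Figure D4:**
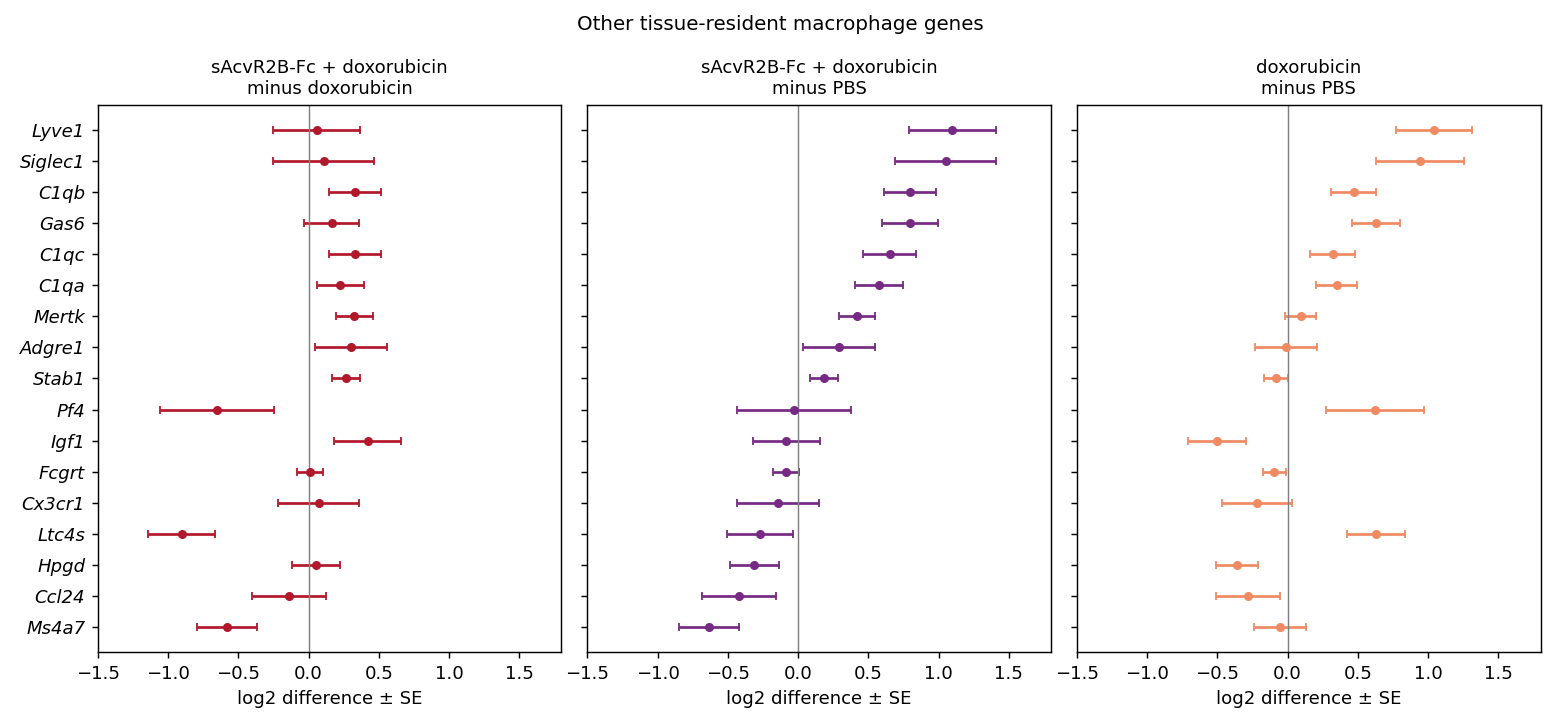
Log2 difference with its SE for the 17 other resident macrophage genes tested, pre-treated minus doxorubicin (left), pre-treated minus PBS (middle) and doxorubicin minus PBS (right), sorted by the middle panel. Differences run from -0.90 to 0.42 on the left, from -0.63 to 1.10 in the middle and from -0.50 to 1.04 on the right, all smaller than the 2.83 and 3.42 of Vsig4 in pre-treated hearts.

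Summed over the 17 genes, the linear signal was 11685 to 15999 in pre-treated hearts and 11219 to 13461 in doxorubicin hearts, against 9249 to 11151 in PBS hearts. These sums lean on the brightest probe, that of Gas6, at 3614 to 5664 in pre-treated and 2649 to 5339 in doxorubicin hearts, against 2245 to 2970 in PBS hearts. Without Gas6 the sums overlapped between all groups, at 7607 to 10335 in pre-treated and 7540 to 8570 in doxorubicin hearts, against 6762 to 8604 in PBS hearts. The sums without Gas6 lean in turn on the next brightest probe, that of Fcgrt. Its mean log2 signal was 11.65 in pre-treated, 11.64 in doxorubicin and 11.73 in PBS hearts. Several markers of the macrophages best known for Vsig4 were at background. Of the Kupffer cell genes, Clec4f was detected on 1 of 13 arrays, a pre-treated one, Clec1b on 2, and Cd5l, Spic and C6 on 0. Id3 and Nr1h3, which many cells express, were detected on all. Both lay higher on all pre-treated than on all PBS arrays, where 8.06% of all genes did so. Their differences were 0.46 ± 0.17 and 0.43 ± 0.14 (adjusted p = 0.165 and 0.117, limma). Neither separated pre-treated from doxorubicin arrays. Of the peritoneal macrophage genes, Alox15 and Cxcl13 were detected on 0 arrays, while Gata6, also a factor of heart muscle, Icam2, also on endothelium, and Fcna were detected on all 13.

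Genes of neighbouring programs were read for the same contrasts. Of the list for macrophage growth factors and their regulators, 7 of 11 were tested and 0 called in any comparison, with Cebpb, a myeloid transcription factor gene, at 0.86 ± 0.23 in pre-treated against PBS hearts (adjusted p = 0.0806, limma). Of the list for alternative activation, 4 of 11 were tested and 0 called. Arg1, Chil3, Il4ra, Ccl17, Ccl22 and Pdcd1lg2 were detected on 0 arrays, and Retnla differed by 0.76 ± 0.26 in pre-treated against doxorubicin hearts (adjusted p = 0.370). Of the scavenger and lectin receptors 9 of 13 were tested, and of the infiltrating monocyte genes 8 of 12. Limma called 0 of either list in the 3 comparisons, and likewise 0 of the 4 endothelial, 6 fibroblast, 1 lymphocyte and 2 complement genes tested. The summed monocyte signal overlapped between groups, at 1252 to 2937 in pre-treated, 1242 to 1911 in doxorubicin and 1091 to 1893 in PBS hearts.

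Class II antigen presentation genes, which resident macrophages and dendritic cells express, went the other way from Vsig4. In pre-treated against PBS hearts 4 of the 6 tested were called, all lower: H2-DMb1 by -1.18, H2-Ab1 by -1.43, H2-Aa by -2.24 and H2-Eb1 by -1.30 on the log2 scale (adjusted p = 0.0011, 0.0226, 0.0239 and 0.0326, limma), where 0.528% of all genes were called lower. Their summed signal, over all 6 tested, was 1788 to 2190 in pre-treated and 1863 to 4186 in doxorubicin hearts, against 3724 to 5978 in PBS hearts. In the other 2 comparisons 0 of the 6 were called. The 4 calls became 1, H2-DMb1, with median scaling or without PBS replicate 2, pre-treated replicate 2 or pre-treated replicate 3, and 2 without PBS replicate 3 or pre-treated replicate 1. On the 7 arrays of undisputed group 0 were called. Dendritic cell genes were close to background, with Itgax, Flt3, Xcr1, Clec9a, Cd209a, Batf3 and Kmo detected on 0 arrays. Of the neutrophil genes 5 of 10 were tested, and the calprotectin subunit genes S100a9 and S100a8 were called higher in both comparisons with PBS. Over all 10410 genes, 73 were called higher in pre-treated against PBS and 17 in doxorubicin against PBS hearts. S100a9 differed by 2.64 ± 0.26 in pre-treated (adjusted p = 0.000158, limma) and 2.79 ± 0.23 in doxorubicin hearts (adjusted p = 7.9e-05), and S100a8 by 2.33 ± 0.31 (adjusted p = 0.00312) and 2.55 ± 0.27 (adjusted p = 0.000993). Both were detected on 1 of 5 PBS arrays, and on the 7 arrays of undisputed group neither was called. Summed neutrophil signal over the 5 genes was 468 to 509 in pre-treated and 367 to 891 in doxorubicin hearts, against 132 to 207 in PBS hearts, so it moved with the same 2 contrasts as Fcgr1. This sum leans on S100a9 and S100a8, with mean log2 signals of 7.50 and 7.12 in pre-treated hearts, against 6.49 for Lcn2. Lcn2, Csf3r and Retnlg were not called in any comparison. Of the other neutrophil genes, Cxcr2, Mmp8 and Ngp were detected on 0 arrays and Camp on 1, and Ly6g had no probe. What part neutrophils or class II-bearing cells have in the values of Vsig4, Clec10a and Fcgr1 was not tested.

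The genes whose pattern over the 13 arrays was most like that of Vsig4 were Acox3, Tmem116, Apoe, Ccdc189 and Pdzd11, with Pearson correlations of 0.94, 0.94, 0.91, 0.91 and 0.90. Over the 10 arrays without the pre-treated group these were 0.69, 0.51, 0.70, 0.34 and 0.91. The correlation was lower without the pre-treated group for 4 of the 5 genes, and not for Pdzd11. All 5 differed less than Vsig4 between pre-treated and doxorubicin hearts: Tmem116 differed by 1.00 and Apoe, the lipid carrier gene abundant in macrophages, by 0.44 on the log2 scale. Genes most like Clec10a were Gsdmd, Ptpra, Plaa, Atp6v1c1 and Zfp263, at 0.90, 0.89, 0.88, 0.88 and 0.88. Over the 10 arrays without the pre-treated group they kept correlations of 0.87, 0.83, 0.83, 0.80 and 0.76. These correlations were picked as the highest of all tested genes over arrays that share their normalization, and they carry no test.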

How the data were processed

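Biotin-labelled cRNA from heart RNA was hybridised to Illumina BeadChips, per the labels' protocols. The authors deposited a table of signal intensity per probe and array, with no scaling between arrays, and with a detection p-value beside each, per the file headers. The authors also deposited a series matrix of processed intensity values, used only for array names and in alternatives (values under 1 set to 1, then log2). The sources used here do not give the software behind either table. Signals were background-corrected, quantile-normalized and log2-transformed with neqc of limma 3.58.1 (R 4.3.3, offset 16).

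Of 45281 probes 18693 passed the detection filter. Probes were named through the platform annotation, and genes were represented by their passing probe with the highest mean. All 13 arrays entered 1 linear model of the 3 groups (lmFit, eBayes, two-sided), without covariates, with Benjamini-Hochberg adjustment over 10410 genes and calls at an adjusted p under 0.05. The fit was tested on simulated data. Where the dim group had the gene detected on 0 arrays, "at least N-fold" is the brighter group's mean over the dim group's mean of, per array, the lowest detected signal or the gene's own signal where higher. Promoters come from RefSeq.

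The text names all 10 genes, from each other list up to 3 genes with the smallest adjusted p plus any called, the 5 genes most correlated with Vsig4 and with Clec10a, and Mgl2 for its likeness to Clec10a. Cdkn1a, Ccl21a and Kcne1 were named after their values were seen, to compare the arrays. Siglec1 was named after its values were seen, for its separation from PBS. Genes and lists were chosen with earlier results of these data known. Alternatives covered normalization, background, filter, probe choice, table, array names, samples, weights, replicate block and leaving out each array.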

Additional observations from a re-analysis of the deposited data

Results flagged for a closer look

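Clec10a in doxorubicin replicate 5 stood apart from its group, at 5.00 on the log2 scale against 5.52 to 5.66 on the other 4 doxorubicin arrays. The gap was 0.78 of the group's range, past Dixon's critical value for 5 samples. It was the only one of 20 groups of 5 arrays to do so (10 genes in doxorubicin and in PBS hearts), and chance sets apart about 1 in 20. The probe was not detected on that array, whose Vsig4 and Timd4 signals were also the lowest of the doxorubicin group.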

How the results depend on the processing

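Of 747 gene values recomputed under alternatives, 676 counted as the same, 55 turned in sign, 6 gained a call and 10 moved in size by more than the replicate SD. The same means direction and side of the threshold kept. For Vsig4 and Clec10a in pre-treated hearts, which carry no test, it means direction kept and size within the replicate SD. None of the tested values was called in the main fit, so none could lose a call. Leaving out an array of the group not compared cannot change a difference. With array weights 2 of the 8 genes were called in pre-treated against PBS hearts (Timd4, adjusted p = 0.0448, and Fcgr1, adjusted p = 0.0414) and 1 in doxorubicin against PBS hearts (Fcgr1, adjusted p = 0.0273). With any 1 array omitted, between 0 and 1 were called in either of these comparisons. Under the series matrix names the differences that turned were, for pre-treated minus doxorubicin hearts, Vsig4 -0.055, Cd163 -0.033, Folr2 0.053 and Timd4 -0.41 (with that table's values too, -0.23, -0.024, 0.059 and -1.08). For pre-treated minus PBS hearts they were Vsig4 -0.10, Folr2 -0.16, Cbr2 -0.086, F13a1 -0.41, Timd4 -0.10 and Fcgr1 -0.29 (with that table's values -0.23, -0.17, -0.086, -0.41, -0.50 and -0.86). For doxorubicin minus PBS hearts they were Vsig4 -0.049, Mrc1 -0.052, Folr2 -0.21, Cbr2 -0.10 and F13a1 -0.21 (with that table's values, for the last 4, -0.052, -0.23, -0.10 and -0.21). The cause was not tested beyond the exchange of names. On the 7 arrays placed alike by both tables, which leave 1 pre-treated array, the turned values were Cd163 -0.12, Cbr2 -0.076 and Timd4 -0.0083 against doxorubicin, Folr2 -0.0058 and F13a1 -0.37 against PBS, and Csf1r 0.035 for doxorubicin minus PBS hearts.

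Without background correction Fcgr1 turned to 0.0032 (pre-treated minus doxorubicin), Vsig4 shrank to 1.67 and 1.87 against doxorubicin and PBS, and Clec10a to -0.33 and -0.19. With series matrix values under the non-normalized table's names Vsig4 was 4.02 against PBS, and Clec10a -4.89 against doxorubicin, where its pre-treated values lay at the floor. Requiring detection on all arrays of a group left no Clec10a value. Median scaling moved the median of all genes by 0.13 against PBS in both comparisons, turned Csf1r to 0.14 (doxorubicin minus PBS) and changed the higher and lower calls over all genes from 17 and 8 to 34 and 1 in that comparison, and from 73 and 55 to 17 and 8 in pre-treated against PBS hearts. With 1 array left out, values with turns in sign ran from -0.25 to 0.18 for Folr2, -0.59 to 0.026 for F13a1 and -0.25 to 0.15 for Fcgr1 (pre-treated minus doxorubicin), from -0.0044 to 0.42 for Folr2 and -0.14 to 0.48 for F13a1 (pre-treated minus PBS), and from -0.18 to 0.070 for Csf1r (doxorubicin minus PBS). Vsig4 ran from 2.53 to 3.03 against doxorubicin.

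Whether same-numbered arrays were paired could not be settled, as the labels do not say what the numbers stand for. Of 11 such pairs 4 had correlated deviations over 0.1 (range -0.25 to 0.39), and 2 of 13 arrays matched best with their own number. With the replicate block 0 of the 8 genes were called in each comparison, 64, 210 and 4 of all genes were called in place of 9, 128 and 25 (pre-treated against doxorubicin, pre-treated against PBS, doxorubicin against PBS), and Cd163 turned to -0.10 (pre-treated minus doxorubicin) and Csf1r to -0.036 (pre-treated minus PBS). Signals of Clec10a, Timd4 and Fcgr1 lay near background, which limits what could be seen for them. The list calls under each alternative and the sum without Gas6 were added after the data were seen.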
